A study of Mus musculus with 10 samples.

Results

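The cells described here are chondrocytes marked by Matn1, which encodes matrilin 1, an adaptor protein of hyaline cartilage matrix. They came from single-cell RNA sequencing of the mouse supraspinatus tendon enthesis, where this shoulder tendon joins bone. The cells were selected on measured values in the whole-enthesis droplet libraries of postnatal day 11 and 18 (P11 and P18). Each had at least 500 detected genes, at most 10% mitochondrial counts, at least 3 Matn1 UMIs (counted molecules), at least 1 UMI of Acan, and 0 UMIs of Ptprc, Cdh5 and Ibsp. Ptprc marks leukocytes, Cdh5 endothelium, and Ibsp, which encodes bone sialoprotein, mineralising cells. In all, 118 of 8348 cells passed, 75 of 2952 at P11 and 43 of 5396 at P18. Since Matn1 and Acan chose the cells, their levels are a description only, and so is every comparison of these cells with others.

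The droplet libraries were 3 in number, 1 for each of P11, P18 and P56, from wild-type C57BL/6 mice. Entheses were pooled per the labels' protocols, red blood cells were lysed, and the sort kept cells without Cd45, a leukocyte protein, and without DAPI, a dye of dead cells. Gli1CreERT;Ai14 mice, given tamoxifen at P5 and P7, supplied 7 plates of 96 wells, 1 at each of P7, P11, P14 and P18 and later 1 at each of P21, P28 and P42. In these mice the Gli1 promoter drives a tamoxifen-dependent Cre, which switches on a red fluorescent protein in Gli1-expressing cells and their descendants. The protocol's wording does not settle whether red cells were kept for the plates, and its list of ages lacks P14. Each age had 1 library per assay, so no difference between ages has a replicate check. Differences below are ratios of UMIs summed over cells, with 95% intervals that cover counting error only.

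Chondrocytes build a matrix of type II collagen fibrils, to which collagens IX and XI belong, and of aggrecan bound to hyaluronan through link proteins. Matrilins tie collagens to proteoglycans. In growing cartilage, cells of this kind either persist as hyaline cartilage or mature toward hypertrophy and mineralisation, whereas at a tendon insertion the neighbouring fibrocartilage also makes type I collagen.

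The label was checked against 5 chondrocyte markers, Matn1, Col2a1, Acan, Col9a1 and Hapln1. All 5 had UMIs in every one of the 118 cells, although the selection guaranteed only Matn1 and Acan. Their summed level ran from 23924 to 160138 UMIs per 1000000 (CPM) per cell at P11, with a median of 90595. At P18 it ran from 27158 to 111439, with a median of 56909. Summed over cells, the 5 markers were at 87993 CPM at P11 and 60447 CPM at P18. In Ibsp-positive cartilage cells (at least 3 Ibsp and 1 Acan UMIs) they were at 82007 and 53411 CPM. As a sum they thus do not set the selected cells apart from those. In the selected cells, markers of hypertrophic chondrocytes (Col10a1, Ihh, Panx3 and Mmp13) summed to 11.5 CPM at P11 and 54.3 CPM at P18. Mmp13 was at 0 in both libraries and Ihh at 0 at P18. At P18, 1 cell with 27 Col10a1 UMIs held most of that sum. The osteoblast markers summed to 25.1 and 35.2 CPM, with Ibsp at 0 by selection.

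Matn1 lies at chr4:130944385-130955476 and Hapln1, the link protein gene whose level ranked most closely with that of Matn1 among the cells, at chr13:89540529-89611832. Their RefSeq promoter windows (GRCm38.p6, 250 bases before to 50 after the start, plus strand) are printed because Matn1 chose the cells and Hapln1 ranked with it. They were searched on both strands for 3 cores of the motif bound by SOX proteins. The first was ACAAAG. A second was ACAATG. The shortest, contained in the second, was ACAAT, and capitals mark its match.
Matn1 promoter, chr4:130944135-130944434: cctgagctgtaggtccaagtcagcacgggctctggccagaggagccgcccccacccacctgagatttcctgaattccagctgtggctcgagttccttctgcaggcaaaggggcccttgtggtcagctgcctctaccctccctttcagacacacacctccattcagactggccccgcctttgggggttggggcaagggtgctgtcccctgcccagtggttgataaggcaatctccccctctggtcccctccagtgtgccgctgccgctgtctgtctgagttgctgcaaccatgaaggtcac
Hapln1 promoter, chr13:89540386-89540685: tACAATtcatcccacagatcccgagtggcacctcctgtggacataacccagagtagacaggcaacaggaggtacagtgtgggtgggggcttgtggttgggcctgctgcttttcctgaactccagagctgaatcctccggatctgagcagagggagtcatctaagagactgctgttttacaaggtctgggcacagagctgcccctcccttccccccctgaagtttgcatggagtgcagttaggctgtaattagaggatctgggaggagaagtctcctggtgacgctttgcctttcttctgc
The Matn1 window held none of these letters, and the Hapln1 window held the shortest core once. Among 32851 promoter windows of the same length, the first core was in 18.7%, the second in 12.6% and the shortest in 31.0%.

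The share of cells passing was 2.54% at P11 (exact binomial 95% interval 2.0 to 3.17%) and 0.797% at P18 (0.577 to 1.07%). At P56, 0 of 5131 cells passed, which allows a share of up to 0.0585% (3 cells of the total). A single P56 cell held 1 Matn1 UMI and no other held any. Other Acan-positive cells were also few at P56. Those with at least 3 Acan UMIs and none of Matn1, Ptprc, Cdh5 and Ibsp numbered 32, against 621 at P11 and 243 at P18. Ibsp-positive cartilage cells (at least 3 Ibsp and 1 Acan UMIs) numbered 20, against 131 and 568. Lack of Matn1 and lack of cartilage cells were not tested apart. The median depth of all cells kept was 13518 UMIs at P11, 7370 at P18 and 6146 at P56. Cells with at least 3 Matn1 UMIs numbered 122 at P11 and 149 at P18, and none of them lacked Acan. Ibsp removed most of the rest: 46 of the 122 and 104 of the 149 carried it, 20 and 19 of these with a single UMI, which free RNA can also give. Without the Ibsp condition, a choice added after seeing the data, 118 cells passed at P11 and 140 at P18. Those were 4.00% of the P11 cells kept (3.32 to 4.77%) and 2.59% of the P18 cells (2.19 to 3.05%). The share of all cells kept was thus higher at P11 under either rule. That total includes cells with a Ptprc UMI, which cannot pass: 436 of 2952 at P11 and 2536 of 5396 at P18. Shares of the cells without Ptprc were not computed. The shares given here therefore do not say at which age the selected cells were more frequent among cells without Ptprc. The Matn1-positive cells with Ibsp that otherwise passed (43 and 97) had Spp1 at 879.5 and 4001 CPM and Alpl at 144 and 343 CPM. The selected cells had Spp1 at 639.9 and 123 CPM and Alpl, the phosphatase of mineralising cells, at 49.5 and 54.3 CPM.

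Cells close to the Matn1 threshold were a larger share at P18. At P11, 4 of the 75 cells held 3 to 5 Matn1 UMIs and 37 held 50 or more. At P18 these numbers were 13 and 11 of 43. The 13 P18 cells just inside had Col2a1 at 45347 CPM and Col1a1 at 61.2 CPM. The 21 P18 cells just outside, with 1 or 2 Matn1 UMIs, had Col2a1 at 45554 CPM and Col1a1 at 20.3 CPM. At P11 the 4 cells just inside had Col1a1 at 129.8 CPM and the 17 just outside at 33433 CPM.

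**Figure D1:**
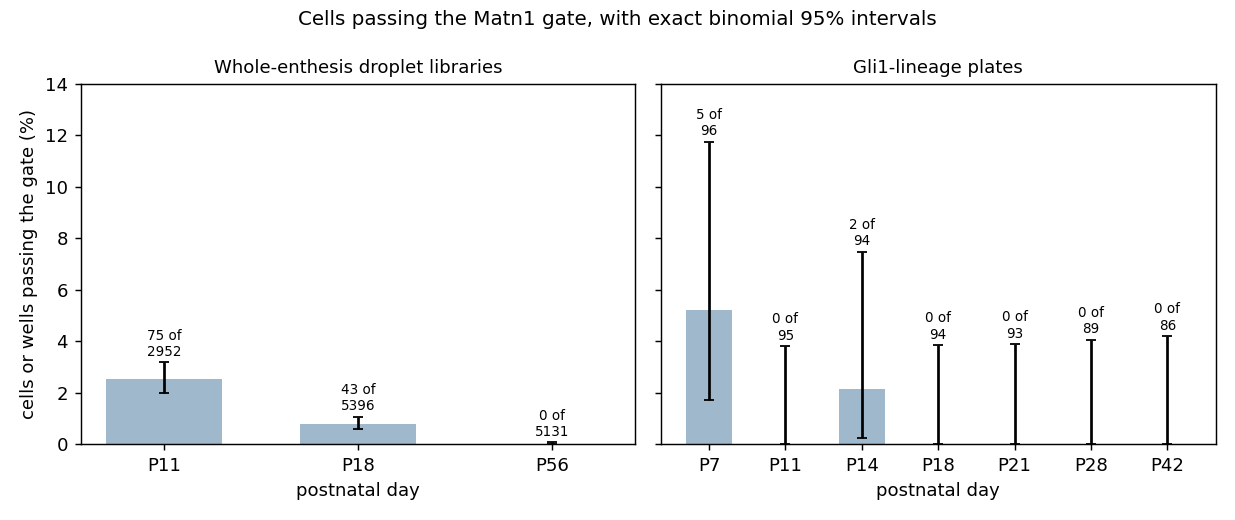
Share of cells (droplet libraries, left) or wells (Gli1-lineage plates, right) that passed the selection, in %, by postnatal day. Bars are shares, whiskers exact binomial 95% intervals, and labels the numbers passing of those kept; only P11 and P18 among droplet libraries, and P7 and P14 among plates, had any.

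The selected cells were deep, with 2255 to 48897 UMIs at P11 (median 17985) and 5429 to 22760 at P18 (median 15057). Their median mitochondrial share was 5.16% at P11 and 2.80% at P18. Cell barcodes shared between libraries numbered 4 to 9 per pair, none of them among the selected cells. Sex-chromosome transcripts differed too. Xist, expressed from the inactive X of females, was found in 92.0% of the selected P11 cells and 6.98% of the selected P18 cells. The 4 Y-linked genes measured were found in 12% and 86.0%. Among all other cells kept, Xist was in 76.9% and 30.45%, and the Y-linked genes in 15.85% and 44.2%. The selected P18 cells thus differed from the rest of their library in this makeup, and why was not tested. Age, library and this makeup cannot be told apart. Granulocyte markers, the leading transcripts of leukocytes at P18, summed to 4.07 CPM at P11 and 145 CPM at P18 in the selected cells, against 7348 and 109662 CPM in Ptprc-positive cells. Leukocyte markers summed to 3.39 and 6.39 CPM with Ptprc (by selection) and Cd52 at 0. Endothelial markers summed to 8.14 and 7.99 CPM.

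At P11, 7 of the 75 cells stood apart in type I collagen, the main fibril collagen of tendon and bone. They held 106 to 2691 Col1a1 UMIs each (median 599), together 97.4% of the Col1a1 UMIs of the 75 cells and 14.4% of all their UMIs. The other 68 held 0 to 52 (median 2), and the 43 P18 cells 0 to 8 (median 0). These same 7 cells also had a median depth of 31424 UMIs, against 17894 in the other 68, and Tnmd, a tendon marker, at 1884 against 5.55 CPM. They still carried Col2a1 at 41734 CPM and Matn1 at 2535 CPM. When the highest doublet scores were removed at the expected rate, these 7 were the only selected cells lost. Of the 7, 3 held UMIs of both Xist and Y-linked genes, against 0 of the other 68 and 41 of the 2877 P11 cells not selected. The doublet scores and these mixed transcripts are measurements, not a test that settles each cell, and results that rest on them are given with and without them, a split chosen after seeing the data.

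**Figure D2:**
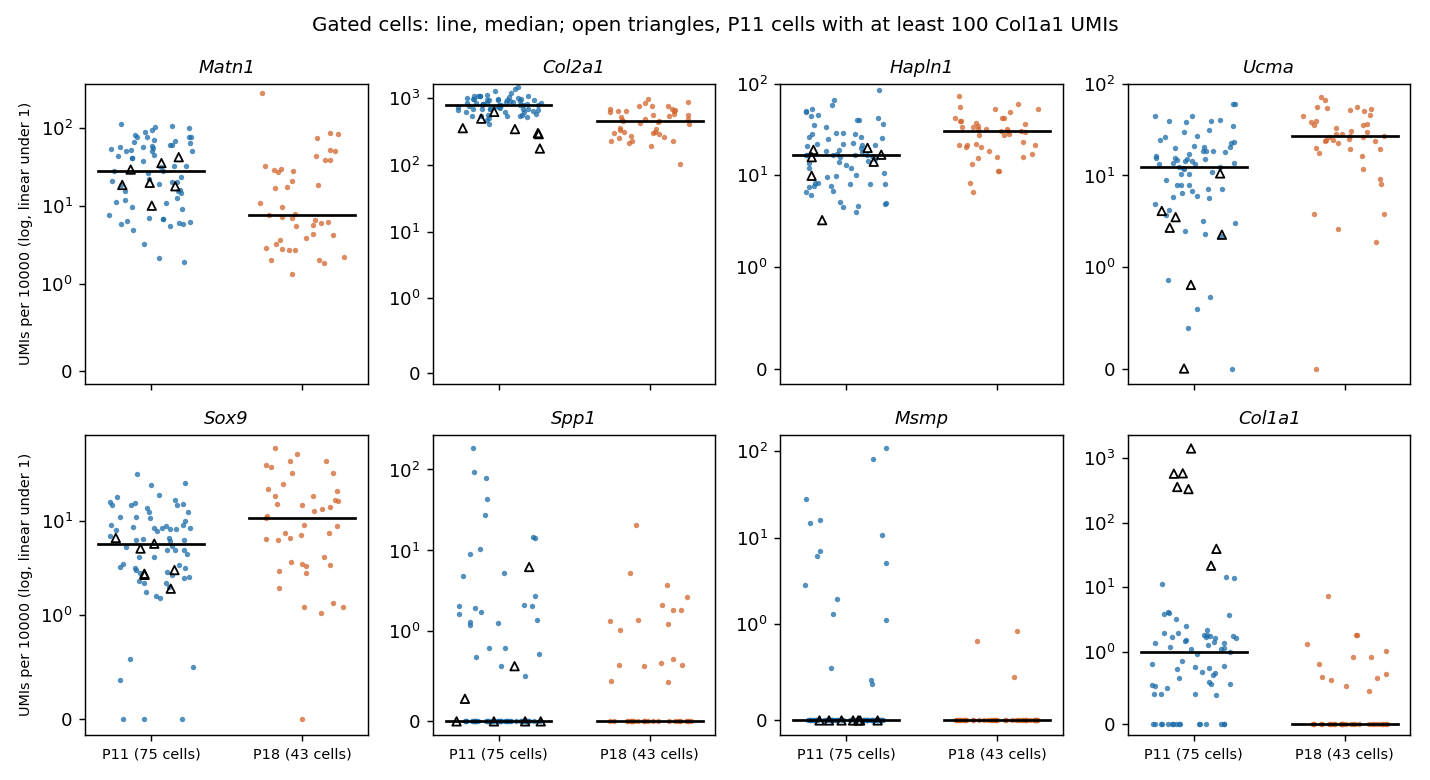
UMIs per 10000 in each selected cell (vertical axis, logarithmic above 1 and linear below) for 8 genes at P11 (75 cells, blue) and P18 (43 cells, orange). Lines are medians and open triangles the 7 P11 cells with at least 100 Col1a1 UMIs, which lie apart in Col1a1 and have 0 UMIs of Msmp.

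Genes were then compared between the libraries. In all, 3634 genes had at least 50 UMIs over both sums. Of these, 20 were at least 4-fold higher at P18 (0.55%) and 57 at least 4-fold lower (1.57%). Without the 7 cells, 22 of 3244 genes were higher (0.678%) and 16 lower (0.493%), with 17 of the higher and 14 of the lower genes the same. Without the Ibsp condition, 44 of 5950 genes were higher and 54 lower, with 7 of the 20 and 35 of the 57 the same. Of the 57 lower genes, 36 had at least 50% of their P11 UMIs in the 7 cells. A second comparison was with 621 (P11) and 243 (P18) Matn1-negative cells, which had at least 3 Acan UMIs and 0 of Matn1, Ptprc, Cdh5 and Ibsp. In both libraries 29 of 5641 genes were at least 4-fold higher in the selected cells (0.514%) and 135 at least 4-fold lower (2.39%). These comparison cells were mixed, with Col1a1 at 94887 CPM at P11 and 21089 CPM at P18. Their 5 chondrocyte markers had a median of 983 CPM per cell at P11 and 18735 CPM at P18. Tendon fibroblast markers had medians of 12082 and 3049 CPM in them, against 8759 and 8693 CPM in tendon cells (at least 3 Tnmd UMIs). The P11 comparison is thus largely with tendon-like cells that carry Acan, not with other chondrocytes. A further 131 and 568 Ibsp-positive cartilage cells (at least 3 Ibsp and 1 Acan UMIs) give levels only.

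Col2a1 had the highest level of any gene in the cells, and of the cartilage collagens none of the 7 on the list differed 2-fold between P11 and P18. Over all genes tested, 5.78% were 2-fold higher at P18 and 6.03% 2-fold lower. Col2a1, the type II collagen chain, ranged from 213 to 4589 UMIs per cell at P11 (median 1378) and from 91 to 1949 at P18 (median 705). Summed, that was 75750 CPM (75306 to 76196) and 48919 CPM (48373 to 49470). The libraries overlapped, with the P18 cells in the lower part of the range. Col9a1, Col9a2 and Col9a3, the chains of collagen IX, stood at 4372, 3647 and 5624 CPM at P11 and at 4008, 4580 and 6077 CPM at P18. Col11a1 and Col11a2, of collagen XI, stood at 5892 and 2870 CPM and then at 4518 and 2835 CPM. The median log2 ratio of the list was -0.02, against 0.04 for all genes tested. All 7 were above the Matn1-negative cells in both libraries, with a median log2 difference of 3.78 at P11 and 1.11 at P18. None of the 7 passed 4-fold in both.

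Of 17 proteoglycans and link proteins, 0 differed 4-fold between P11 and P18 and 2 were at least 2-fold lower at P18. Snorc (listed as 3110079O15Rik), a small transmembrane proteoglycan of cartilage, had 25 to 568 UMIs per P11 cell (median 167) and 52 to 404 per P18 cell (median 206). Its sums were 10607 and 14844 CPM. Hapln1, which locks aggrecan to hyaluronan, had 2 to 161 UMIs per P11 cell (median 30) and 7 to 157 per P18 cell (median 42), or 2054 CPM (1982 to 2129) and 3036 CPM (2901 to 3176). It stood 4.60 and 2.04 log2 units above the Matn1-negative cells. Omd, the keratan sulfate proteoglycan osteomodulin, was at 1321 and 2113 CPM, 4.51 and 2.36 log2 units above them. Acan was at 1857 and 2298 CPM. Epyc, a small leucine-rich proteoglycan of growth cartilage, was at 136 and 181 CPM, against 35.8 and 25.7 CPM in the Ibsp-positive cells. Vcan and Prelp were the 2 members at least 4-fold below the Matn1-negative cells. Fmod, which is also high in tendon, was at 1930 and 872.5 CPM, with a log2 ratio of -1.15.

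The matrix adaptors and small cartilage proteins included Matn3, a matrilin related to Matn1. Matn3 had 2 to 104 UMIs in each P11 cell (median 41) and 5 to 93 in each P18 cell (median 24), 2198 and 2044 CPM in sum. It was 5.43 and 2.19 log2 units above the Matn1-negative cells, and its level in Ibsp-positive cells was 572 and 454 CPM. Matn1 itself, which chose the cells, had 4 to 289 UMIs per P11 cell (median 49) and 3 to 156 per P18 cell (median 11), 3961 and 2186 CPM. In the Ibsp-positive cells Matn1 was at 630 and 519 CPM. Ucma, a secreted protein of unmineralised cartilage, had 0 to 162 UMIs per P11 cell (median 22) and 0 to 119 per P18 cell (median 38). Its sum went from 1546 CPM (1483 to 1611) to 3103 CPM (2967 to 3244), a log2 ratio of 1.01, and 0.84 without the 7 cells. Mgp, an inhibitor of calcification, went from 7846 to 14599 CPM, and 1 cell held 2067 of its 11562 P11 UMIs. Cnmd (chondromodulin, an angiogenesis inhibitor) stood at 1739 and 2301 CPM and Comp, a pentameric adaptor, at 3017 and 3218 CPM. Of 21 members tested, 0 were 4-fold higher at P18 and 2 lower, Matn2 and Cilp, and without the 7 cells 0 of 19 were lower.

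The transcription factors of chondrocytes were present and none of 17 tested differed 4-fold between the libraries. Sox9, the master factor of cartilage, had 0 to 76 UMIs per cell at P11 (median 9) and 0 to 80 at P18 (median 17). It summed to 743 CPM (700 to 788) and 1470 CPM (1377 to 1568), a log2 ratio of 0.98. After thinning each cell to 3000 UMIs, 74.3% of P11 cells and 83.7% of P18 cells kept a Sox9 UMI (unthinned 96.0% and 97.7%). In Ptprc-positive cells, taken as background, these thinned shares were 1.92% and 1.59%, at median depths of 11724 and 6748 UMIs. This background may not be free RNA alone, since 16 and 37 of these cells held at least 10 UMIs of the 5 chondrocyte markers. For the selected cells, the intervals of the P11 and P18 shares overlapped (62.8 to 83.8% and 69.3 to 93.2%). Sox5 and Sox6, its partners, were at 95.7 and 39.4 CPM at P11 and at 73.5 and 47.9 CPM at P18. Runx2, which drives hypertrophy, was at 27.8 and 16.0 CPM, against 58.2 and 45.6 CPM in the Ibsp-positive cells. Foxa3 was at 111 and 187 CPM.

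Hedgehog and parathyroid-hormone-related signals control how fast chondrocytes mature. Pth1r, the receptor of parathyroid hormone and its related protein, was at 164 and 133 CPM in the selected cells, 46.8 and 61.3 CPM in the Matn1-negative cells and 446 and 389 CPM in the Ibsp-positive cells. Gli1, the Hedgehog target used for lineage marking, was at 14.3 and 9.59 CPM. Ihh, the ligand, summed to 4 UMIs at P11 and 0 at P18. Ptch1, the receptor and a Hedgehog target, was at 60.4 and 22.4 CPM, the only member of 4 tested that was 2-fold lower at P18. Hhip, a Hedgehog inhibitor, was at 0.679 and 4.79 CPM and at least 4-fold below the Matn1-negative cells.

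Of the BMP and TGF-beta genes, 0 of 16 tested differed 4-fold between the libraries, and 2 of 21 were 4-fold below the Matn1-negative cells. Bmp2 was at 67.9 and 166 CPM, with a log2 ratio of 1.29. Its target Id1 was at 732 and 1155 CPM. Of the FGF and Wnt genes, 0 of 15 were 4-fold higher at P18 and 2 were lower, Igf1 and Igfbp5, growth factor and binding protein, and neither passed without the 7 cells. Frzb, a secreted Wnt antagonist of cartilage, had 0 to 70 UMIs per P11 cell (median 16) and 0 to 30 per P18 cell (median 7), 874 and 626 CPM. That was 6.22 and 2.42 log2 units above the Matn1-negative cells. Wif1, another Wnt antagonist, went the other way across cell groups: 400 and 339 CPM in the selected cells, 623 and 1186 CPM in the Matn1-negative cells, and 2624 and 2295 CPM in the Ibsp-positive cells. Fgfr3, the receptor that restrains chondrocyte growth, was at 71.3 and 81.5 CPM. Ctgf and Cyr61, matricellular proteins, stood at 2811 and 784 CPM at P11 and at 5115 and 1954 CPM at P18.

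Genes specific to hypertrophy and mineralisation were low, in cells chosen to have no Ibsp UMI, so their low level is a description only. The Matn1-positive cells with Ibsp that otherwise passed had Col10a1 at 172 and 86.2 CPM, against 3.39 and 52.7 CPM in the selected cells. Bglap, an osteoblast marker, was at 4.30 and 226 CPM in them, against 5.43 and 3.20 CPM. Spp1, osteopontin, was the 1 of 14 tested that passed, lower at P18 by a log2 ratio of -2.38 (-2.73 to -2.04), and -2.55 without the 7 cells. This direction held only with the Ibsp condition: without it Spp1 was higher at P18, at 733 and 2980 CPM, a log2 ratio of 2.02. It was uneven: 31 of 75 P11 cells had it, up to 234 UMIs in a cell, and 18 of 43 P18 cells, up to 37. Thinned to 3000 UMIs, 23.0% and 9.30% of the cells had a Spp1 UMI, against 4.32% and 5.64% of Ptprc-positive cells and 78.6% and 76.9% of Ibsp-positive cells (unthinned 41.3% and 41.9% of the selected cells). Sparc, osteonectin, which cartilage, tendon and bone all make, was at 33403 and 31313 CPM. Cd200, a surface glycoprotein, was at 428 and 526 CPM and was the 1 member at least 4-fold above the Matn1-negative cells.

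Tendon and fibrocartilage genes made up 8 of the 57 genes lower at P18. Of 17 tested these 8 passed, and without the 7 cells 2 of 12. The 2 were Col1a1 and Msmp. Col1a1 went from 5803 to 35.2 CPM, and without the 7 cells from 178 CPM, a log2 ratio of -2.34. Col1a2, the partner chain of type I collagen, was present without it: in the 68 cells it stood at 2573 CPM, in the P18 cells at 749.5 CPM. Scx, the tendon transcription factor, had UMIs in 7 of the 75 P11 cells and none of the 43 P18 cells. Msmp, a small secreted protein, had UMIs in 16 P11 cells, up to 259 in 1 of them, and none in the 7 cells. At P18 it had 1 UMI in each of 3 cells. Its level went from 383 to 4.79 CPM, a log2 ratio of -6.32 (-8.60 to -4.76). In Matn1-negative cells Msmp went the other way, from 714 to 5985 CPM. Of the superficial-zone genes, 3 of 6 tested were 4-fold lower at P18, and without the 7 cells 1 of 3, Prg4. Prg4, lubricin of the joint surface, was at 124 and 11.2 CPM, but 1 P11 cell held 135 of its 183 UMIs. In Matn1-negative cells it was at 2392 and 10860 CPM.

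Of the machinery that makes the matrix, no gene of sulfation and glycosaminoglycan synthesis (20 tested) and no gene of collagen folding and secretion (36 tested) differed 4-fold between the libraries. Ugdh, which makes the UDP-glucuronate used in chondroitin and hyaluronan chains, had the largest ratio in its list, from 249 CPM (224 to 276) to 810 CPM (741 to 884), or 1.70 on the log2 scale. Thinned shares of cells with Ugdh were 44.6% and 76.7% (unthinned 78.7% and 95.3%), with 7.67% and 8.63% in Ptprc-positive cells. Has2, a hyaluronan synthase, was at 71.3 and 153 CPM. Chst11, a chondroitin sulfotransferase, was at 261 and 269 CPM, with 15.6 and 74.8 CPM in the Matn1-negative cells. Serpinh1, the collagen chaperone, was at 1642 and 1401 CPM. Of 20 genes of glycolysis and the low-oxygen response tested, 0 differed 2-fold. Hk2, a hexokinase, was at 259 and 352 CPM, Ldha, lactate dehydrogenase, at 499 and 455 CPM, and Hif1a, the oxygen-responsive factor, at 209 and 272 CPM. Of the matrix-breakdown genes and inhibitors, 0 of 11 tested differed 4-fold. Timp3, an inhibitor of matrix proteases, was at 513 and 1318 CPM, a log2 ratio of 1.36. Serpina3n, a protease inhibitor, was at 98.4 and 121 CPM and at least 4-fold above the Matn1-negative cells.

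Cell-cycle genes were sparse. Top2a, needed for chromosome separation, had UMIs in 4 of 75 P11 cells and 1 of 43 P18 cells, and 1 cell held 33 of the 39 P11 UMIs of Ube2c. Stmn1 was the 1 of 5 tested that was 4-fold lower at P18, with a log2 ratio of -2.22 and of -1.99 without the 7 cells, just under 4-fold. The cell-cycle inhibitor Cdkn1a had 0 to 36 UMIs per P11 cell (median 15) and 1 to 68 per P18 cell (median 16), 689.5 and 1508 CPM. Immediate-early genes, which tissue digestion can induce, were high in both libraries: Fos was at 3437 and 3907 CPM, and 0 of 20 members differed 4-fold. Ier3 had the largest ratio among them, 468 and 1456 CPM, or 1.64 on the log2 scale.

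None of the 20 genes higher at P18 was on one of the 16 lists, and several were high in few cells. Rgcc, a regulator of the cell cycle, was the clearest: 25 of 75 P11 cells had it, up to 13 UMIs, and 28 of 43 P18 cells, up to 79. Its level went from 46.2 CPM (35.8 to 58.5) to 711 CPM (647 to 780), a log2 ratio of 3.95, and 3.81 without the 7 cells. Thinned shares were 12.2% and 48.8% (unthinned 33.3% and 65.1%), while in Ptprc-positive cells they were 20.9% and 22.6%. Rgcc was also higher at P18 in Matn1-negative cells (54.7 and 359 CPM) and in Ibsp-positive cells (185 and 462 CPM). Krt16, a keratin of stressed epithelium, had the largest ratio at 4.67, but 6 cells in each library carried it and 1 P18 cell held 112 of 249 UMIs. Pgf, a placental growth factor of the VEGF family, went from 10.2 to 84.7 CPM, in 8 and 18 cells. Epcam, an epithelial adhesion protein, went from 8.82 to 71.9 CPM, and 1 P18 cell held 25 of 45 UMIs. The log2 ratios of Pcp4, Rasl11a, Olfml3, Clcf1, Cryab and Syn3 lay between 2.39 and 2.78. Without the Ibsp condition, 7 of the 20 still passed, among them Rgcc at 3.41, Krt16 at 4.36, Olfml3, Clcf1 and Cryab. Pgf, Epcam, Pcp4, Rasl11a and Syn3 then fell under 4-fold, with log2 ratios from 1.36 (Pgf) to 1.955 (Syn3). Ddx3y, on the Y chromosome, was among the 20.

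Lower at P18 with and without the 7 cells, beside Msmp, Spp1, Prg4 and Col1a1, were Mest, Cpz, Ppp1r3b, Col8a1, Rnd1, Fam13c, the X-linked pair Xist and Tsix, Gm42418 and mt-Nd3. Of these 14 genes, 6 also passed without the Ibsp condition, among them Msmp, Col1a1 and Ppp1r3b. Without that condition Spp1 and Prg4 turned to log2 ratios of 2.02 and 0.51, and Mest, Cpz, Col8a1, Rnd1 and Fam13c lay between -1.92 and -0.37. Mest, an imprinted gene of growing tissues, was found in 66 of 75 P11 cells and 20 of 43 P18 cells. It went from 353 to 87.9 CPM, a log2 ratio of -2.01 and of -2.12 without the 7 cells. Tnmd, at -7.43 with all cells (-12.74 to -4.94, from 1 P18 UMI), was at -1.80 without the 7. Thbs4, at -5.03 with all cells (-7.32 to -3.47, from 3 P18 UMIs), was at 0.60 without them. Fndc1 went from -5.49 to -0.99. Without the 7 cells, the ratios of Tnmd, Thbs4 and Fndc1 rest on few UMIs, under the minimum of 50. Tnmd had 7 at P11 and 1 at P18, Thbs4 had 4 and 3, and Fndc1 had 4 and 1. Postn, Kera and Aspn, of tendon and fibrous matrix, were at least 32.0-, 24.6- and 24.6-fold lower with all cells, P18 being at 0 and set at 3 UMIs. More than 97% of the P11 UMIs of each were in the 7 cells. All 192 UMIs of Rgs5, a marker of mural cells, came from 1 of the 7. Mfap4 had a log2 ratio of -5.81, and of -2.80 on too few UMIs without them.

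Restricting the comparison to cells with no Xist UMI, an alternative chosen after seeing the data, left 6 P11 and 40 P18 cells. The 6 P11 cells held 79594 UMIs in all, so these values are imprecise. All 20 higher genes kept a ratio above 1 and 9 kept 4-fold, 8 of the 20 having 0 P11 UMIs set at 3. Of the 29 lower genes with a value, 21 kept the direction and 8 kept 4-fold, 5 of the 8 on under 10 P11 UMIs. Rasl11a had a log2 ratio of 0.02, and Col1a1 was at -1.78.

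**Figure D3:**
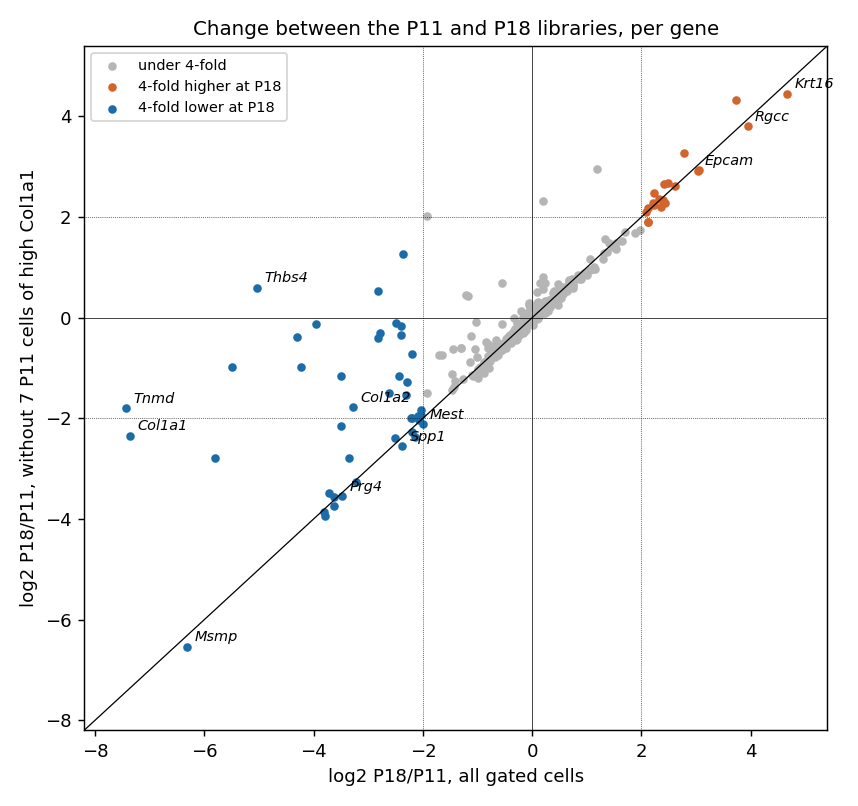
Log2 ratio of P18 to P11 per gene, with all 118 selected cells (horizontal) and without the 7 P11 cells of at least 100 Col1a1 UMIs (vertical), for the list genes and the 4-fold genes with at least 50 UMIs and a value in every sum. Dotted lines mark 4-fold. Tnmd, Thbs4 and Col1a1 lie far above the diagonal, the vertical values of Tnmd and Thbs4 resting on few UMIs. Msmp, Spp1, Rgcc and Krt16 lie close to the diagonal.

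Against the Matn1-negative cells, the 29 higher genes included cartilage genes described above (Hapln1, Omd, Matn3, Frzb and Cd200) and others of unlike function. Of the lists, 7 of 7 cartilage collagens, 0 of 10 superficial-zone and 1 of 21 tendon genes were higher in both libraries, and 0, 10 and 18 were lower. Over all genes tested, 22.7% were higher in both and 54.2% lower in both. Tnni2, the inhibitory subunit of fast-muscle troponin, led the list after Matn1, by 5.88 and 5.24 log2 units, with 162 and 94.3 CPM. It was in 15 and 4 cells and was higher in Ibsp-positive cells (411 and 358 CPM), while of the 5 muscle markers Acta1, Myh4, Ckm and Pax7 were at 0. The other, Tnnt3, a troponin of fast muscle, had UMIs in 17 P11 and 7 P18 cells, at 24.4 and 16.0 CPM, against 1.14 and 4.28 CPM in the Matn1-negative cells. Fabp4, a fatty-acid carrier, was at 132 and 71.9 CPM in 14 and 8 cells. It was at most 8.85 CPM in the Matn1-negative, Ibsp-positive, tendon and Ptprc-positive cells of either library, and 1 P11 cell held 133 of its 195 UMIs. Lmcd1, a LIM-domain cofactor, was broader, in 50 of 75 and 26 of 43 cells, at 365 and 300.4 CPM against 9.0 and 30.3 CPM. Fxyd3, a subunit modifying the sodium pump, was at 190 and 548 CPM against 4.93 and 88.7 CPM, and Chil1, a chitinase-like protein of chondrocytes, at 145 and 535 CPM against 8.43 and 82.3 CPM. Sfn, Trdc, BC022687 and Nes had differences of 2.68 to 3.99 log2 units.

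Idi1, Fdft1 and Msmo1, enzymes of the sterol pathway, were among the 29 and were named after their values were seen. Idi1 was at 246 CPM (221 to 272) and 399.5 CPM (352 to 452), against 18.2 and 82.3 CPM. Msmo1 was at 319 and 359.5 CPM against 21.1 and 86.9 CPM, and Fdft1 at 65.2 and 107 CPM against 6.82 and 23.9 CPM. Thinned shares of cells with Idi1 were 40.5% and 46.5% (unthinned 70.7% and 74.4%), against 3.75% and 11.3% of Matn1-negative, 22.9% and 23.5% of Ibsp-positive and 5.04% and 5.25% of Ptprc-positive cells. Idi1 and Msmo1 were above the Ibsp-positive cells too (163 and 201 CPM, and 238 and 213 CPM), whereas Fdft1 at P11 lay within counting error of them (57.3 CPM, against an interval of 52.8 to 79.6).

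The 135 lower genes were led by Slurp1, S100a4, Barx2, Col15a1, Prg4, Kera, Hhip, Col1a1, Ecm1 and Mamdc2. Slurp1, a small secreted protein, had 1 and 2 UMIs in the selected cells, against 45.1 and 374 CPM in the Matn1-negative cells. Barx2, a homeobox factor, was at 3.39 and 1.60 CPM against 116 and 61.6 CPM. Col1a1 was 4.03 and 9.23 log2 units lower, the P11 value with the 7 cells included. The tendon genes Tnmd, Scx and Thbs4 and the growth factor gene Bmp4 were also among the 135.

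**Figure D4:**
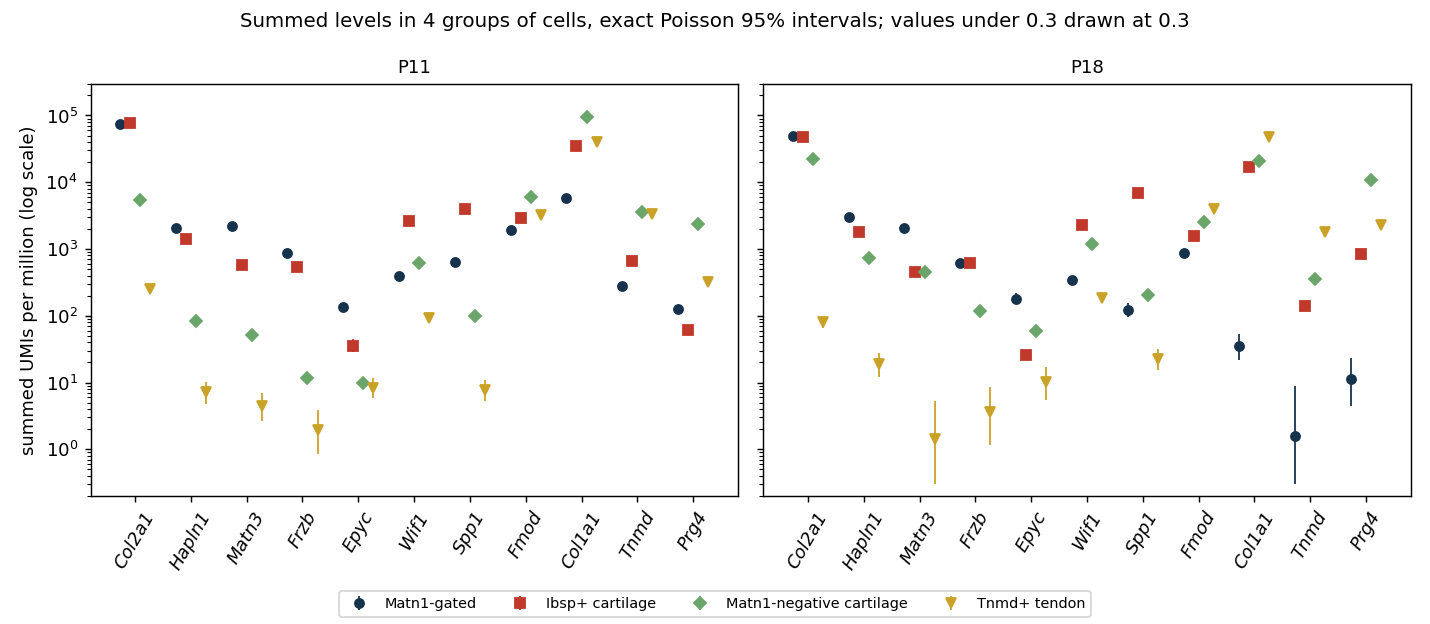
Summed level of 11 genes in the selected, Ibsp-positive, Matn1-negative and tendon cells (at least 3 Tnmd UMIs) at P11 and P18, in CPM on a logarithmic axis, with exact Poisson 95% intervals that are mostly smaller than the symbols. Hapln1, Matn3, Frzb and Epyc are highest in the selected cells except Frzb at P18, where Ibsp-positive cells are level; Spp1 and Wif1 are highest in Ibsp-positive cells and Prg4 in Matn1-negative cells.

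Matn1 varied widely among the cells, and Hapln1 varied with it. With each cell thinned to 3000 UMIs and the 7 cells left out, Matn1 ran from 0 to 39 UMIs in 67 P11 cells (median 10) and from 0 to 86 in 43 P18 cells (median 2). Hapln1 ran from 0 to 20 (median 4) and from 1 to 24 (median 8). Of 67 list genes found in at least 50% of the cells of both libraries, Hapln1 had the highest rank correlation with Matn1, at 0.48 and 0.47, followed by Chad at 0.34 and 0.39, Snorc at 0.40 and 0.29 and Frzb at 0.38 and 0.23. The lowest were Wif1 at -0.43 and -0.29 and Dcn, decorin of fibrous matrix, at -0.33 and -0.28. In all, 26 genes had positive values in both libraries and 17 negative values in both. The cells of each correlation share 1 library, and the thinned counts are small, so these values are descriptions.

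**Figure D5:**
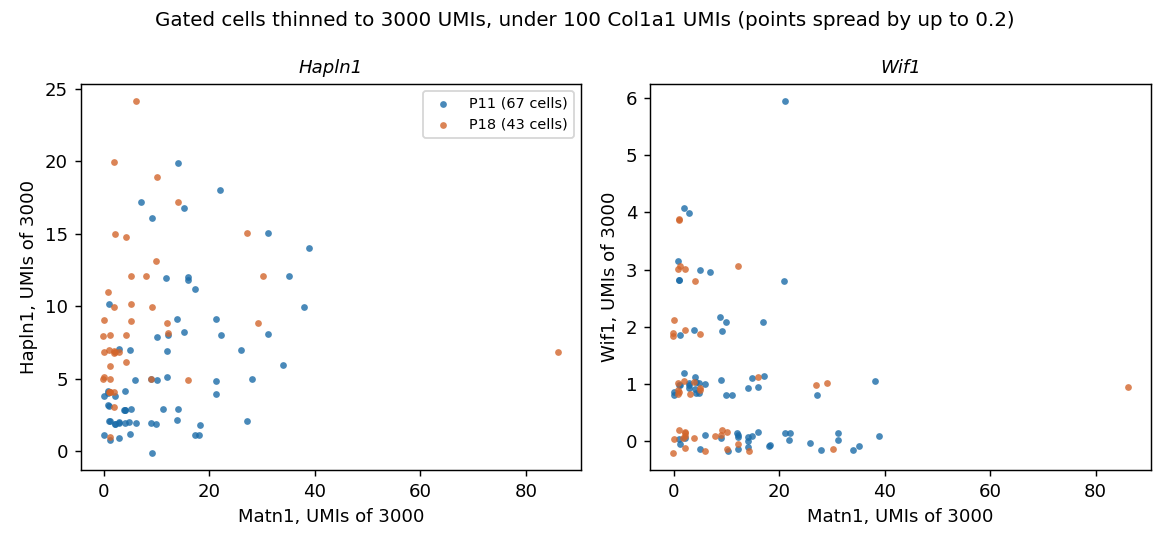
Hapln1 (left) and Wif1 (right) against Matn1 in each selected cell with under 100 Col1a1 UMIs, as UMIs out of 3000 after thinning, at P11 (67 cells, blue) and P18 (43 cells, orange), with points spread by up to 0.2. Cells high in Matn1 tend to be high in Hapln1 and to have 0 or 1 UMI of Wif1.

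On the Gli1-lineage plates, the same conditions passed 5 of 96 wells at P7 (5.21%, 1.71 to 11.7%) and 2 of 94 at P14 (2.13%, 0.259 to 7.47%). No well passed at P11, P18, P21, P28 or P42, which allows shares (3 wells of the total) of up to 3.16%, 3.19%, 3.23%, 3.37% and 3.49%. The limits at P11 and P18 are above the droplet shares of those ages. Matn1 counts summed to 107 at P7, 141 at P14 and 1 at P21, and to 0 on the other plates. Col2a1 was found on every plate, from 5034 CPM at P11 to 16457 CPM at P14. The 7 wells held 5 to 25 Matn1 counts, 83 to 745 Col2a1 counts and 1 to 8 Col1a1 counts. All 7 had Acan, by selection, and Col9a1, and 6 of 7 had Hapln1. Plate counts may not be molecules, so they are set beside the droplet values without a comparison.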

How the data were processed

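The authors deposited raw whole-number counts: UMIs for each gene in each droplet barcode, and counts for each gene in each plate well. Per the file headers, matrix software was 3.1.0 for P11 and P18 and 3.0.2 for P56. The genome build was mm10, per the submitters' processing notes, and the aligner and annotation are not given in the sources used here. Libraries came from 3' ends, so counts were not divided by gene length. Counts were scaled to 1000000 UMIs over each group of cells. Python 3.11.15, numpy 2.4.6, scipy 1.17.1, pandas 2.3.3 and scanpy 1.11.5 were used. A gene was counted at 4-fold or more with at least 50 UMIs over both sums (in each library, against Matn1-negative cells), a rule checked on simulated counts. A sum of 0 was set at 3 UMIs. Intervals at 95% were exact Poisson for sums and Clopper-Pearson for shares. Those of ratios were converted from the Clopper-Pearson interval of the share of P18 UMIs in both sums. Shares were thinned to 3000 UMIs, leaving out 1 selected P11 cell, 19 and 461 Ptprc-positive cells, 7 and 4 Matn1-negative cells and 0 and 14 Ibsp-positive cells.

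Scrublet's automatic threshold marked 1, 1 and 4 cells and had not worked, so doublets were kept, and removing the 70, 233 and 211 highest scores was an alternative. The genes named were those of 16 lists, the 10 of highest level, and the 10 largest ratios each way per comparison, without mitochondrial, ribosomal and sex-chromosome genes except where said. The cells and lists were chosen with earlier results of these data known. The droplet libraries held 44104990 (P11), 53725468 (P18) and 40082499 (P56) counts, the plates 235722 to 506912 in the wells kept. Nothing says that the cells of a library came from separate animals.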

Additional observations from a re-analysis of the deposited data

How the results depend on the processing

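No cell passed at P56 under any alternative tried. The number at P11 was 35 under stricter cell filters (1000 genes, 5% mitochondrial counts), and 118 (P11) and 140 (P18) without the Ibsp condition. Genes higher at P18 numbered 5 with at least 200 UMIs, 193 with no minimum, 66 in cells with no Xist UMI and 44 without the Ibsp condition. Genes lower at P18 numbered 25 under those filters, 16 with the top doublet scores removed or in cells under 100 Col1a1 UMIs, 14 with at least 200 UMIs, 304 with no minimum and 10 with no Xist UMI. Against Matn1-negative cells, thinning to 3000 UMIs left 13 higher and 59 lower genes. Thbs4 reversed to 0.60 with the doublet scores removed and under 100 Col1a1 UMIs, both of which drop the 7 cells. That value rests on 4 P11 and 3 P18 UMIs, too few for a direction. Spp1 reversed to 2.02 without the Ibsp condition. Of 185 ratios of 22 genes followed, 159 kept direction and side of 4-fold and 19 kept direction only. Of the rest, 4 (Postn and Aspn) came to a ratio of 1 set by the 3-UMI floor and 3 reversed. The alternatives that drop the 7 cells left the same selected cells and gave the same ratios. Both are counted, so the 185 ratios are not all distinct and the Thbs4 reversal appears under each. Of 40 shares thinned to other depths, 34 stayed within their interval. One alternative scaled to a total without mitochondrial, ribosomal protein, leukocyte, granulocyte, B-cell, erythroid marker and haemoglobin genes. That scaling and a trimmed scaling both gave 20 higher and 62 lower genes. No paired analysis was possible because a single library stood for each age and assay. Depth limits low genes: at P18 the 43 cells held 625788 UMIs.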
